A study of Homo sapiens with 6 samples.

Results

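The lysosome and autophagy genes described here are 42 named genes, taken by symbol from a table of 25987 genes with a symbol. All 42 were present, and 41 passed the filter on low counts that 12944 genes passed. They code for subunits of the proton pump that acidifies lysosomes, for lysosomal membrane proteins and enzymes, for the transcription factors that act on such genes, and for proteins that build autophagosomes. The cells were 786-O, an established line from a human clear cell kidney tumour, grown in DMEM/F12 with serum. For 3 RNA libraries the cells had long been kept in copper, supplied as copper sulfate mixed into the serum overnight in the cold so that it bound to serum proteins. For 3 control libraries the serum was handled alike without copper. The labels give 30 uM for copper replicate 1, 31 for replicate 2 and 32 for replicate 3, the series text gives 30 uM, and all 3 were treated as 1 group. Both groups are the same line, described as wild type, and rest on that line alone. The labels do not say how long the adaptation lasted or whether the libraries come from separate cultures, so p-values measure the spread between these libraries, which may be technical. They also do not say that copper and control libraries of the same number belong together. Differences and blocks by replicate number match libraries by that number alone. In RNA from a whole culture, fewer cells with a transcript and less of it per cell cannot be told apart.

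The vacuolar ATPase (V-ATPase) pumps protons into the lysosome through a membrane sector, V0, driven by a cytosolic sector, V1, that splits ATP. The low pH serves hydrolases, such as the cathepsin proteases, which break down material that endocytosis and autophagy deliver. The MiT/TFE factors TFEB, TFE3 and MITF bind a short palindrome, the CLEAR element, near the starts of many lysosomal genes, and mTORC1 on the lysosome keeps them in check. Some of these factors are rearranged or amplified in other kinds of kidney cancer.

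The CLEAR core is shown because these factors bind it near many lysosomal genes. Their binding was not measured here. RefSeq promoter windows (GRCh38.p14, 250 bases before to 50 after an annotated start) were matched for 33 of the 42 members, 42 windows in all. The search was chosen after the values below were known. The core TCACGTGA, a palindrome and so the same on both strands, was in 6 of these 42 windows (14.3%) and in 344 of 35116 windows of all genes (0.98%). The 6 genes were ATP6V0D1, ATP6V1G1, CTSA, GAA, LAMP1 and MCOLN1, and GAA, LAMP1 and MCOLN1 held the core at more than 1 place. One site of each is printed in 30 bases, 5′ to 3′ on the gene's strand, with the core in capitals.
ATP6V0D1, chr16:67481199-67481228, minus strand: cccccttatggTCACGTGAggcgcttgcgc
ATP6V1G1, chr9:114587699-114587728, plus strand: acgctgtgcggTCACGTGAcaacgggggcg
CTSA, chr20:45891298-45891327, plus strand: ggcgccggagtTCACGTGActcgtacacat
GAA, chr17:80101493-80101522, plus strand: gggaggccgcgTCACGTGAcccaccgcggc
LAMP1, chr13:113297199-113297228, plus strand: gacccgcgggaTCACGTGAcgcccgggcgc
MCOLN1, chr19:7522571-7522600, plus strand: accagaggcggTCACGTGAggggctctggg
These cores began 60, 59, 26, 77, 29 and 42 bases before the start in the order printed. A match describes the letters only, and none of the 6 genes passed the test between groups.

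The windows of CTSD and CTSL, the cathepsins that the results below turn on, held other matches. The wider E-box CACGTG, which lies inside the core, was in 8 member windows (19%) and in 7.26% of all windows. It stood in that of CTSD, chr11:1763957-1763986 on the minus strand: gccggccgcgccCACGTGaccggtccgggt. The pattern TGACNNNGC, searched on both strands as the core of the antioxidant response element bound by NRF2, was in 13 member windows (31%) and in 13.3% of all windows. CTSL held it at chr9:87726086-87726115 on the plus strand, read on the opposite strand: ggttttagaaGCAGAGTCAggcgaagctgg. CTSD held TGACNNNGC too, from 195 bases before the start and again from base 5 after it, the latter past the bases printed here. The 250 bases before the start of CTSD and of CTSL follow, with every match of these patterns in capitals.
CTSD, chr11:1763928-1764177, minus strand: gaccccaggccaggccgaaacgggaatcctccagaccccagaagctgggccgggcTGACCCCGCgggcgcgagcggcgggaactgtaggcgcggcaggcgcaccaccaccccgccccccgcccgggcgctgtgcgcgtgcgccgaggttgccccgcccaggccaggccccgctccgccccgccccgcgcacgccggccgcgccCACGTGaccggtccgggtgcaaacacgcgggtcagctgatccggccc
CTSL, chr9:87725869-87726118, plus strand: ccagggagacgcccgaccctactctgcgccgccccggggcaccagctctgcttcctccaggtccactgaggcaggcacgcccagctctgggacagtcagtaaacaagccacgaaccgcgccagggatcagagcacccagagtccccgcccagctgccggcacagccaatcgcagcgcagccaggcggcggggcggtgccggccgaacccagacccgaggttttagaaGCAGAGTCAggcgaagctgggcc
The stretch before CTSD was 79.2% G and C, and that before CTSL 69.2%. Members with any of the 3 patterns had log2 fold changes above 0, namely 6 of 6 tested with the core, 8 of 8 with the E-box and 12 of 12 with TGACNNNGC. Without the pattern, 19 of 26, 17 of 24 and 13 of 20 were above 0. The lean thus stood beside all 3 patterns, whose gene sets overlap, and was not tested. Of all genes tested 51.4% were above 0. That share was not taken for all genes with a pattern, and the search was chosen after these values were known.

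Total counts ranged from 16301772 to 18189469 among the copper libraries and from 19219090 to 25079913 among the controls. The members took 0.643% to 0.761% of them in copper and 0.615% to 0.658% in control. Replicate 3 of each group lay apart from the other libraries on the first principal component (57.9% of the variance). Of 8 renal carcinoma markers 7 passed the filter, with a summed level of 3865 to 4711 CPM (counts per 1000000, on TMM-scaled library sizes) in copper and 4150 to 4341 in control. VIM made up most of that sum, at 2763 to 3788 CPM in copper and 2891 to 3283 in control. Among these markers PAX8 was between 123 and 147 CPM in every library, and CA9 had 0 to 2 counts. Of 7 macrophage and leukocyte markers 1 passed the filter, and their summed level was 4.15 to 10.4 CPM in copper and 4.02 to 6.34 in control. For endothelial and fibroblast markers, of which 2 of 6 passed, it was 6.64 to 10.2 and 7.65 to 10.1 CPM. None of these 13 markers was at 0 in all 6 libraries, while CD68, a lysosomal glycoprotein of macrophages, had 0 to 2 counts in each. Of the 7 renal markers 3 were above 0 and 4 below, from -0.23 (CDH6) to 0.58 (EPCAM). CSF1R, the one macrophage marker tested, was at 0.36, and the fibroblast markers PDGFRB and LUM were at -0.42 and 0.51. The adjusted p by edgeR was 1.00 for each.

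No member passed the test between copper and control. By edgeR's quasi-likelihood test 0 of the 41 tested members had an adjusted p under 0.05, and 1, CTSL, had an unadjusted p under 0.05. DESeq2 also called 0 members, and 27 genes (0.209%) in all. Over all genes edgeR called 0 of 12944 (0%) and 455 (3.52%) had an unadjusted p under 0.05. With the replicate number as a block it called 22 genes (0.17%), none of them a member, and 5 members, all higher, had an unadjusted p under 0.05 in that fit, where 8.41% of all genes had. Apart from 3 alternative fits described with the cathepsins, the others called 0 members too. The share of all genes that they called was 0.0526% with no filter, 0.27% with a term for replicate 3, 0.448% in DESeq2 with the block, 0.568% and 0.589% with the block and without replicate 1 or 2, 0.115% without copper replicate 3, and 0% in the rest. The 95% interval of the log2 fold change lay within 1 of 0, that is within a 2-fold change, for all 41 members and for 89.1% of all genes. The largest member log2 fold change was 0.45, and over all genes 408 exceeded 0.5 in size. All fold changes below are on the log2 scale.

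The members leaned to higher values in copper. Of the 41, 31 had a log2 fold change above 0 (75.6%), against 51.4% of all genes tested, and their median was 0.07 against 0.01. The median fell to 0.04 in replicates 1 and 2 alone (29 above 0) and to 0.04 with the length and GC dependence of each library taken out (27 above 0). Without copper replicate 3 it was 0.05, with 26 above 0. The groups did not overlap for 9 members higher in copper and 1 lower. Over all genes 5.45% were higher without overlap and 5.35% lower. In 24 members the copper library was on the same side of its control in all 3 replicate numbers, 19 higher and 5 lower, where 34.7% of all genes were. The median difference was 0.04 in replicate 1, 0.07 in replicate 2 and 0.14 in replicate 3. A difference over 0.5 in size was seen for 0, 1 and 2 members in replicates 1, 2 and 3, against 6.15%, 7.63% and 15.5% of all genes. These shares describe the list and were not tested, since its genes share the same 6 libraries. The list was also chosen with earlier results of these data known.

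**Figure D1:**
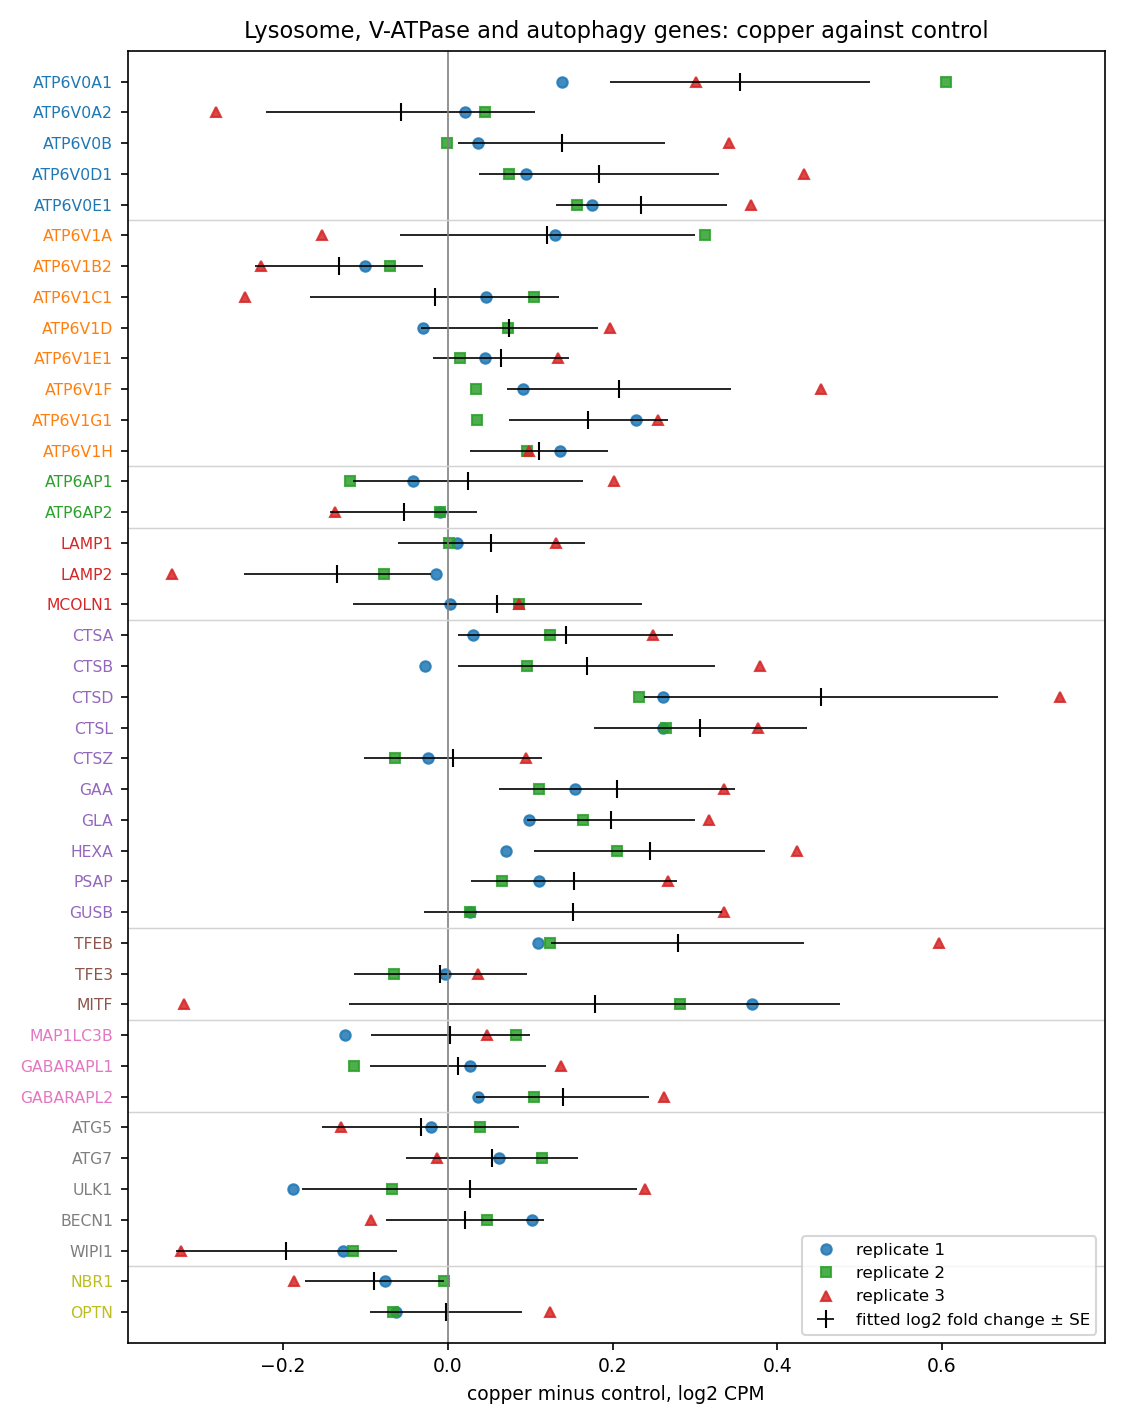
Copper minus control in log2 CPM (x axis) for each of the 41 tested members (y axis, coloured and divided by role), with circles, squares and triangles for replicates 1, 2 and 3 and a black tick for the fitted log2 fold change ± SE. Replicate 3 lies farthest from 0 for most members, at 0.74 for CTSD and 0.60 for TFEB on the high side and -0.33 for LAMP2 on the low side.

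Lysosomal hydrolases gave the most even pattern. All 10 had a log2 fold change above 0, with a median of 0.18 and a range of 0.01 to 0.45, and 8 of the 10 were higher in copper in all 3 replicate numbers. None passed the test. Their median difference was 0.08, 0.12 and 0.34 in replicates 1, 2 and 3.

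CTSD, the aspartic protease cathepsin D (Entrez 1509; chromosome 11, 1752755 to 1763927), had the largest fold change of the members. It stood at 245, 257 and 424 CPM in copper replicates 1, 2 and 3 and at 205, 219 and 253 in control. Copper replicate 3 was far above the other 5 libraries, while copper replicate 1 lay below control replicate 3, so the groups overlapped. The means were 309 ± 99.7 and 226 ± 24.8 CPM (SD, n = 3). The log2 fold change was 0.45 (SE 0.22), and the adjusted p by edgeR was 1.00 without and 0.367 with the replicate block. Without copper replicate 3 the fold change was 0.16.

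CTSL, the cysteine protease cathepsin L (Entrez 1514; chromosome 9, 87726119 to 87731469), did not overlap between groups. Its copper libraries were at 205, 205 and 261 CPM and its control libraries at 171, 171 and 201. Within each group replicate 3 was the highest, and the gap between groups was similar at each number, 0.26, 0.26 and 0.38 in log2. The means were 224 ± 32.0 and 181 ± 17.1 CPM (SD, n = 3). The fitted log2 fold change was 0.31 (SE 0.13, unadjusted p 0.0472, adjusted p by edgeR 1.00, and 0.345 with the block). Without copper replicate 3 it was 0.18.

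Some other fits of the same counts called CTSL, CTSD or both. In replicates 1 and 2 alone edgeR called CTSL (log2 fold change 0.26, adjusted p 0.0495), where 0.856% of all genes were called and 0.501% were called higher. With the block and without replicate 3 it called 5 members, all higher: CTSL (0.26, adjusted p 0.0004), CTSD (0.25, 0.00059), MITF (0.33, 0.0046), ATP6V1A (0.22, 0.0134) and ATP6V0E1 (0.17, 0.0286). That fit called 7.03% of all genes, with 2.88% of all genes higher in copper. With the block, and with the dependence of each library on transcript length and GC content taken out, it called CTSD (0.36, adjusted p 0.0155) and CTSL (0.25, 0.0349), where 1.56% of all genes were called and 0.672% were called higher. Over the 21 alternatives the adjusted p of CTSL ran from 0.0004 to 1.00 and that of CTSD from 0.00059 to 1.00.

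Of the remaining hydrolases, GLA, which cleaves alpha-galactosyl lipids, and HEXA, a subunit of the hexosaminidase that degrades gangliosides, also did not overlap. GLA was at 49.2, 49.5 and 58.0 CPM in copper and 45.9, 44.2 and 46.5 in control (log2 fold change 0.20, SE 0.10). HEXA was at 33.7, 33.4 and 44.7 against 32.1, 29.0 and 33.3 (0.24, SE 0.14). In both, copper replicate 3 was the highest library and the other copper libraries lay just above control. GAA, the acid alpha-glucosidase that digests glycogen, had a fold change of 0.21, and PSAP, the precursor of the saposin activators, one of 0.15. Without copper replicate 3 the values were 0.12 for GLA, 0.09 for HEXA, 0.115 for GAA and 0.04 for PSAP, and GAA was at 0.11 without control replicate 1 and 0.31 without copper replicate 1. CTSB (0.17), GUSB (0.15) and CTSA (0.14) differed most in replicate 3, by 0.38, 0.34 and 0.25, against at most 0.12 at the other numbers. Without copper replicate 3 they were at -0.02, -0.07 and 0.01. GUSB has pseudogene copies that could share its reads, so its value is uncertain. Such sharing was not tested for GUSB or for the other hydrolases. CTSZ was the exception, at 0.01, with copper below control in replicates 1 and 2. The table places CTSB on chromosome 8 at 1479972 to 1505568, which does not overlap the RefSeq gene at 11842524 to 11868087, so what its row counted was not settled.

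**Figure D2:**
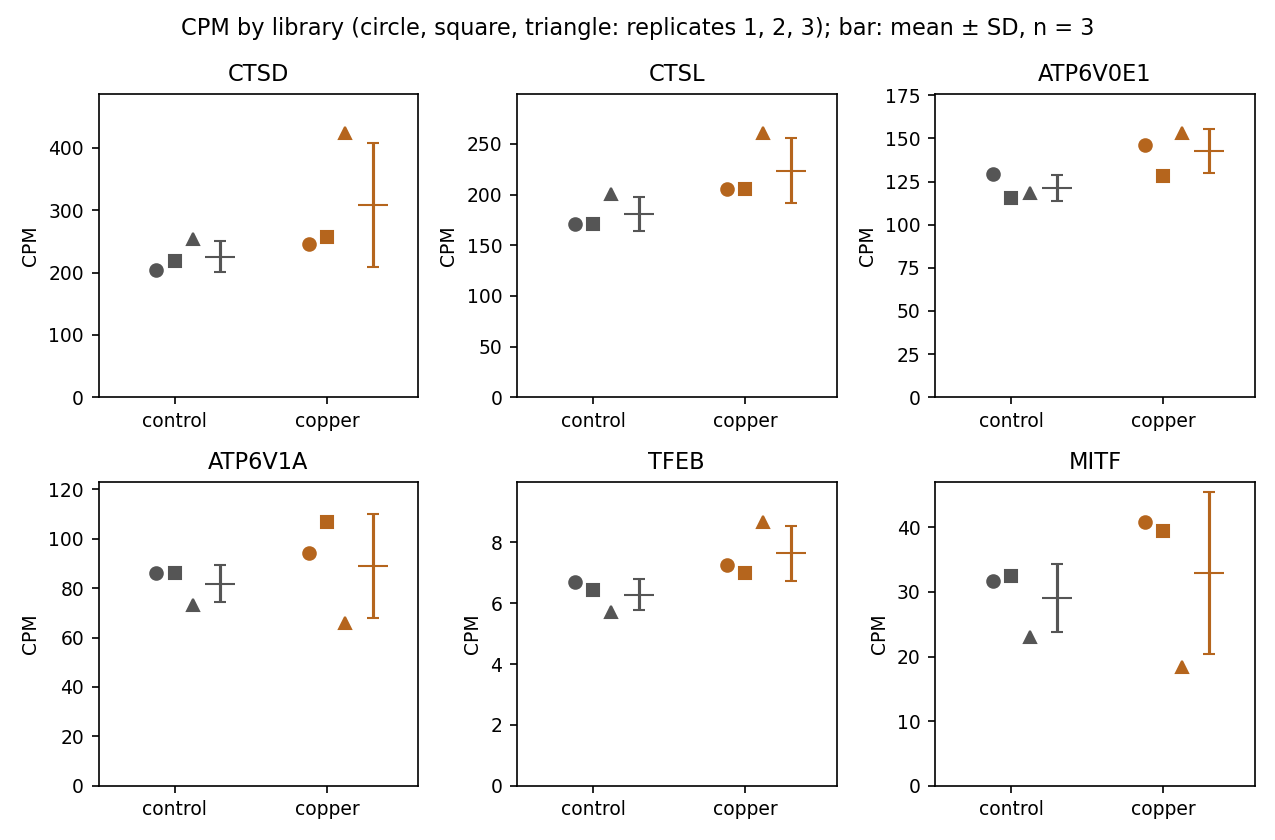
CPM (y axis, from 0) in each control and copper library for CTSD, CTSL, ATP6V0E1, ATP6V1A, TFEB and MITF, with circle, square and triangle for replicates 1, 2 and 3 and the bar for mean ± SD (n = 3). CTSL and TFEB do not overlap between groups, and copper replicate 3 is the highest library for CTSD and the lowest for ATP6V1A and MITF.

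Among the MiT/TFE transcription factors TFEB did not overlap between groups, TFE3 was near 0 and MITF differed in direction between replicates. TFEB (Entrez 7942; chromosome 6, 41683978 to 41735060) was at 7.25, 7.01 and 8.69 CPM in copper and 6.72, 6.42 and 5.71 in control. The gap was 0.11 and 0.12 in log2 in replicates 1 and 2 and 0.60 in replicate 3, the number at which copper was highest and control lowest. The fitted fold change was 0.28 (SE 0.15, adjusted p by edgeR 1.00, n = 3), and 0.18 without copper replicate 3. TFEB rests on 109 to 167 counts a library.

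TFE3 (Entrez 7030; chromosome X, 49028726 to 49043357) was at 90.2, 93.9 and 107 CPM in copper and 90.4, 98.2 and 104 in control. Libraries of the same number lay close together, and the log2 fold change was -0.01 (95% interval -0.25 to 0.23). It turned above 0 with upper-quartile (0.02) and total-count (0.02) scaling, which also moved the median of all genes from 0.0052 to 0.028 and 0.033.

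MITF (Entrez 4286; chromosome 3, 69739464 to 69968332) was at 40.9, 39.5 and 18.4 CPM in copper and 31.7, 32.5 and 23.0 in control. Replicates 1 and 2 of copper were above all controls, by 0.37 and 0.28 in log2 against their own numbers, and replicate 3 was below all controls, by -0.32 against its own. The log2 fold change of 0.18 (SE 0.30) had an adjusted p by edgeR of 1.00. Without copper replicate 3 it was 0.46, and without copper replicate 1 it was -0.01.

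Per kilobase of transcript, control levels of the 3 factors were 28.6 CPM for TFE3, 6.03 for MITF and 2.67 for TFEB. TFE3 was thus the most abundant of them by this measure, which takes 1 annotated transcript a gene.

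V-ATPase genes of the membrane sector leaned higher, 4 of 5 tested with a median of 0.18, and none passed the test. ATP6V0E1, the small e subunit (Entrez 8992; chromosome 5, 172983771 to 173035445), was at 146, 128 and 153 CPM in copper and 129, 115 and 119 in control. Copper exceeded control at every number, by 0.17, 0.16 and 0.37 in log2, although copper replicate 2 lay below control replicate 1. Its log2 fold change was 0.24 (SE 0.10, unadjusted p 0.0542, adjusted p by edgeR 1.00). ATP6V0A1, an a subunit that links the sectors (Entrez 535; chromosome 17, 42458878 to 42522579), was at 9.57, 12.1 and 9.06 CPM in copper and 8.69, 7.89 and 7.34 in control without overlap. Its fold change was 0.35 (SE 0.16, adjusted p by edgeR 1.00), and copper replicate 2 was the highest library. ATP6V0D1, which joins the ring of the rotor to the central stalk, and ATP6V0B, part of that ring, had fold changes of 0.18 and 0.14, with 0.43 and 0.34 in replicate 3 and at most 0.10 elsewhere. ATP6V0D1 was at 0.04 without control replicate 3, ATP6V0B at -0.0048 without copper replicate 3 and ATP6V0A1 at 0.22 without copper replicate 2. ATP6V0A2, another a subunit, was at -0.06.

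ATP6V0C, the proteolipid that makes up most of the rotor ring, was the member not tested. Its row held 6, 5 and 11 counts in copper and 8, 1 and 7 in control, while ATP6V0B had 1969 to 2909 in each library. With no filter edgeR gave ATP6V0C a log2 fold change of 0.55 (SE 0.61, adjusted p 0.975), which these counts leave imprecise. Per kilobase the control level was 0.209 CPM for ATP6V0C and 92.2 for ATP6V0B. RefSeq lists 4 pseudogenes of ATP6V0C, none of them in the deposited table. How reads that match several genes were counted is not given in the sources used here, and its part in this value was not tested.

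In the catalytic sector 6 of 8 subunits were above 0, with a median of 0.09, and 3 did not overlap. ATP6V1G1, a stalk subunit (Entrez 9550; chromosome 9, 114587769 to 114598879), was at 102, 95.3 and 94.9 CPM in copper and 87.0, 93.0 and 79.5 in control. All copper libraries were above all controls by a small margin, and the log2 fold change was 0.17 (SE 0.10), and 0.11 without control replicate 3. ATP6V1F, in the central shaft (Entrez 9296; chromosome 7, 128862856 to 128865847), was at 81.0, 73.4 and 103 CPM in copper and 76.0, 71.6 and 75.3 in control. Here copper replicate 3 stood alone, and the fold change of 0.21 (SE 0.14) was 0.05 without it. The stalk subunit ATP6V1E1 (0.06) and ATP6V1H (0.11), a regulatory subunit, did not overlap either. ATP6V1D was at 0.07. The adjusted p by edgeR was 1.00 for each of these subunits.

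ATP6V1A and ATP6V1B2 form the hexamer that binds and splits ATP, and they did not share a direction. ATP6V1A (Entrez 523; chromosome 3, 113747035 to 113812056) was at 94.2, 107 and 65.8 CPM in copper and 86.1, 86.1 and 73.1 in control. Copper replicates 1 and 2 were above every control and copper replicate 3 below every one. Its log2 fold change was 0.12 (SE 0.18), 0.30 without copper replicate 3 and -0.04 without copper replicate 2. ATP6V1B2 was lower in copper at every number (-0.10, -0.07 and -0.23), with a fold change of -0.13 (SE 0.10). ATP6V1C1, another V1 subunit, was at -0.02 and turned to 0.01 with total-count and 0.0021 with upper-quartile scaling. The accessory proteins ATP6AP1 and ATP6AP2, which assist assembly of the pump, were at 0.02 (SE 0.14) and -0.05 (SE 0.09). ATP6AP1 was at 138, 149 and 190 CPM in copper and 142, 162 and 165 in control, and ATP6AP2 at 231, 236 and 238 against 233, 238 and 261. Both overlapped between groups.

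The major lysosomal membrane glycoproteins also differed in direction without passing the test. LAMP1 (Entrez 3916; chromosome 13, 113297239 to 113323672) was at 334, 329 and 404 CPM in copper and 332, 329 and 369 in control, a log2 fold change of 0.05 (SE 0.11). LAMP2 (Entrez 3920; chromosome X, 120426148 to 120469296) was at 456, 437 and 356 CPM in copper and 460, 462 and 449 in control, a fold change of -0.13 (SE 0.11) that was -0.03 without copper replicate 3. In replicates 1 and 2 the groups were within 0.08 of each other for both genes, and copper replicate 3 was the highest library for LAMP1 and the lowest for LAMP2. MCOLN1, the lysosomal calcium channel, was at 0.06 on 118 to 183 counts a library.

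**Figure D3:**
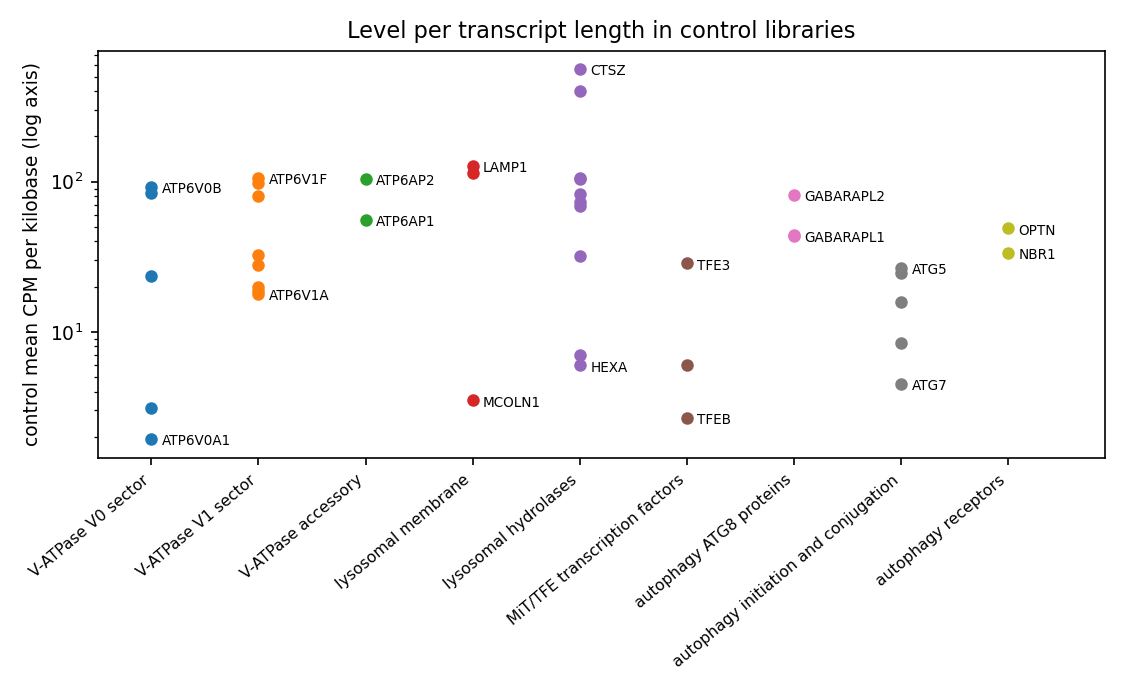
Mean control CPM per kilobase of transcript (log axis) for the 41 tested members by role (x axis), each point 1 gene with the lowest and highest of each role named. CTSZ is highest at 560 and ATP6V0A1 lowest at 1.93.

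Autophagy members ranged from -0.20 (WIPI1) to 0.14 (GABARAPL2) in log2 fold change, and none passed the test. The ATG8 proteins coat the autophagosome membrane and hold cargo receptors. MAP1LC3B, the best known of them, was at 113, 129 and 114 CPM in copper and 123, 121 and 110 in control, a log2 fold change of 0.0027 (95% interval -0.22 to 0.23). GABARAPL1 was at 91.5, 84.4 and 82.7 against 89.8, 91.4 and 75.2 CPM (0.01, SE 0.11). Both overlapped and turned just below 0 with no filter (-0.02 and -0.01). GABARAPL2 did not overlap, at 84.3, 84.4 and 101 CPM in copper and 82.2, 78.5 and 84.2 in control, with a fold change of 0.14 (SE 0.10), and 0.05 without copper replicate 3. Its lowest copper library and highest control library were 0.106 CPM apart.

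Of the 5 genes for starting autophagosomes and conjugating ATG8 proteins, 3 were above 0 and the median was 0.02. WIPI1, which binds the phosphoinositide made at nascent autophagosomes (Entrez 55062; chromosome 17, 68421281 to 68457524), was at 36.5, 39.8 and 42.7 CPM in copper and 39.8, 43.1 and 53.4 in control. It was lower in copper at every number, by -0.13, -0.12 and -0.32, yet the groups overlapped. Its log2 fold change of -0.20 (SE 0.13, adjusted p by edgeR 1.00) was the lowest of the 41 members, and it was -0.06 without control replicate 3. ATG7, the enzyme that activates ATG8 proteins, was at 25.0, 22.7 and 22.2 CPM in copper and 23.9, 21.0 and 22.4 in control (0.05, SE 0.10). ULK1, the kinase that starts autophagy, was below control in replicates 1 and 2 (-0.19 and -0.07) and above it in replicate 3 (0.24), with a fitted value of 0.03. ATG5 (-0.03), of the conjugation machinery, and BECN1 (0.02), a subunit of a lipid kinase complex, were near 0.

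The cargo receptors NBR1 and OPTN deliver ubiquitin-tagged material to autophagosomes. NBR1 (Entrez 4077; chromosome 17, 43171214 to 43211688) was at 146, 151 and 141 CPM in copper and 154, 152 and 161 in control. It was the one member lower in copper without overlap, by 0.534 CPM between the nearest libraries, with a log2 fold change of -0.09 (SE 0.08, adjusted p by edgeR 1.00). OPTN was at 172, 161 and 177 CPM against 179, 169 and 162, a fold change of -0.0024 that turned to 0.02 and 0.03 with upper-quartile and total-count scaling.

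Differences in replicate 3 ran with base composition and transcript length. Across the 41 members the copper-minus-control difference of replicate 3 had a Spearman correlation of 0.611 with transcript GC content and -0.40 with length. The same measures over 12846 tested genes came to 0.513 and -0.486. For the members they came to 0.0443 and -0.146 in replicate 1, and to 0.0181 and 0.103 in replicate 2. All points of a replicate come from the same 2 libraries, so these are descriptions. LAMP2, ATG5, ATP6V1C1, ATP6AP2, ATP6V1A and MITF, the members of lowest GC content (37.7% to 41.4%), were all lower in copper in replicate 3, and CTSD and TFEB, at 64.0% and 63.2%, had its largest differences. With the length and GC dependence taken out, the median of replicate 3 went from 0.14 to 0.07 for the members and from 0.34 to 0.16 for hydrolases, of which 9 of 10 stayed above 0. CTSD went from 0.74 to 0.45, TFEB from 0.60 to 0.33 and LAMP2 from -0.33 to -0.08. WIPI1 went from -0.32 to -0.42. The part of RNA or library quality in this was not tested.

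**Figure D4:**
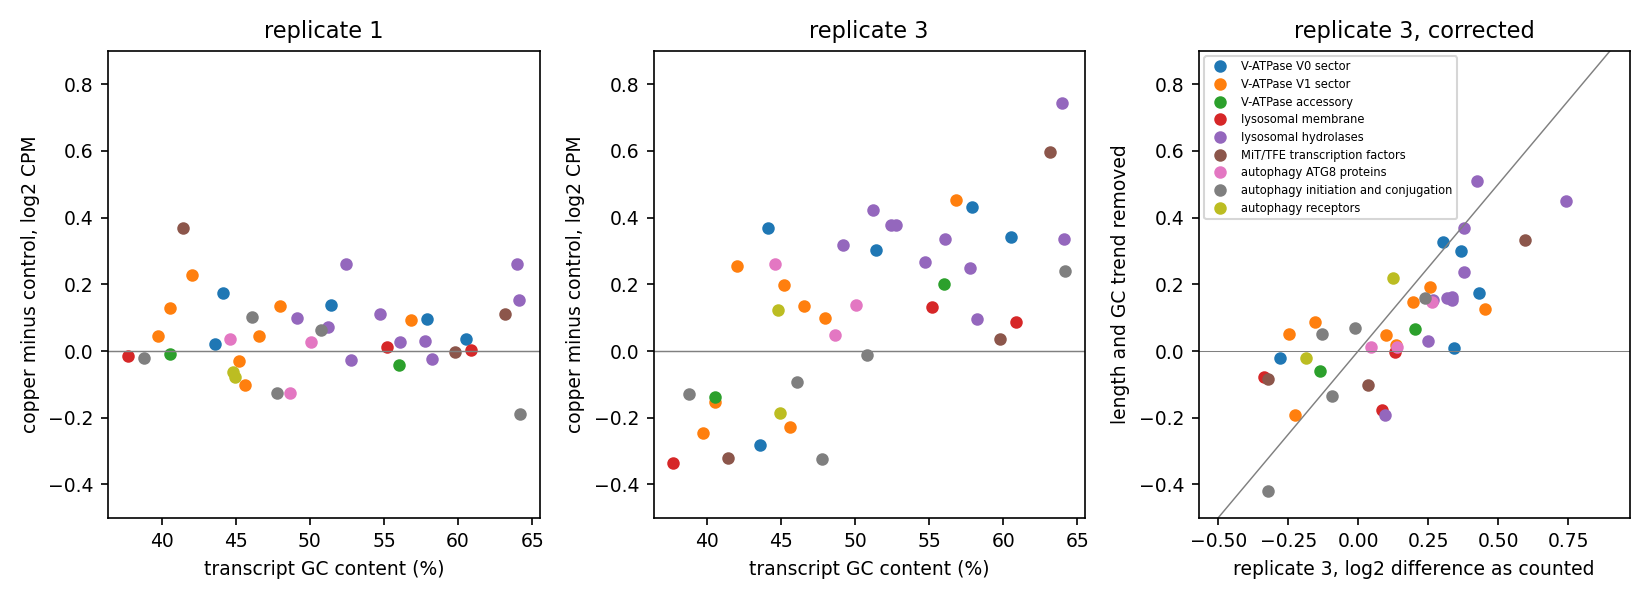
Left and middle, copper minus control in log2 CPM (y axis) against transcript GC content in percent (x axis) for the 41 members in replicates 1 and 3. Right, the replicate 3 difference as counted (x axis) against that with that dependence taken out (y axis), where the line marks equal values, and CTSD moves from 0.74 to 0.45.

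Lists of other genes of these pathways were written from general knowledge, with earlier results of these data known. Those genes held no calls in the edgeR test without the block, with it or in DESeq2. The fits that called members also called some of these. SQSTM1 was called higher in all 3 of them. The fit with the block and without replicate 3 called 4 genes of these lists higher and 6 lower. These include FNIP1 and STX17 as higher and TCIRG1, NPC1, PLD3, SORT1, RPTOR and NPRL3 as lower. That fit called 7.03% of all genes. Replicates 1 and 2 alone called 0.856%, and the block with length and GC dependence taken out 1.56%. Of 14 other V-ATPase subunits and assembly factors tested 0 were called and 9 were above 0 (median 0.09). TCIRG1, the a subunit best known from osteoclasts, was at 33.7, 32.4 and 77.3 CPM in copper and 37.1, 44.2 and 61.7 in control. It was high in replicate 3 of both groups and its log2 fold change was 0.01 (SE 0.25). Per kilobase its control level of 17.8 CPM stood above the 3.10 of ATP6V0A2 and the 1.93 of ATP6V0A1. VMA21, an assembly factor, had the smallest p of this list (fold change 0.11, unadjusted p 0.292).

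Of 38 other lysosomal enzymes and activators 0 were called, 32 were above 0 and the median was 0.07. DNASE2, the acid nuclease, had the smallest p, at 26.0, 25.6 and 29.6 CPM in copper and 18.7, 24.4 and 23.0 in control (log2 fold change 0.30, SE 0.13, adjusted p by edgeR 1.00). Other lysosomal membrane and sorting proteins were evenly split, 13 of 26 above 0 with a median of 0.0031. NPC1, the cholesterol exporter of the lysosome, did not overlap and was lower, at 304, 289 and 280 CPM in copper and 326, 333 and 351 in control (-0.21, SE 0.09, unadjusted p 0.0446, adjusted p by edgeR 1.00).

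For mTORC1 control at the lysosome 13 of 23 genes were above 0 (median 0.09) and 0 were called. LAMTOR2, of the complex that anchors mTORC1 there, was at 40.2, 39.6 and 49.0 CPM in copper and 37.6, 33.2 and 37.0 in control (0.26, SE 0.12). Of 44 other autophagy genes 20 were above 0 (median -0.03) and 0 were called. SQSTM1, the receptor p62 and also a target of NRF2, had the smallest p of all these lists. It was at 196, 177 and 154 CPM in copper and 143, 143 and 126 in control, higher in copper at every number by 0.46, 0.31 and 0.29. Its groups did not overlap, and its log2 fold change was 0.36 (SE 0.12, unadjusted p 0.0165, adjusted p by edgeR 1.00, and 0.289 with the block). In the 3 fits that called it the adjusted p by edgeR was 0.0165 (replicates 1 and 2 alone), 2.48e-05 (block, without replicate 3) and 0.0472 (block, length and GC dependence taken out). ULK2, a kinase related to ULK1, did not overlap either and was at 0.40 (SE 0.16, unadjusted p 0.0385, adjusted p by edgeR 1.00).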

How the data were processed

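The authors deposited 1 table of raw counts per gene for the 6 libraries, 25992 genes in all. Per the labels' protocols, total RNA was made into strand-specific libraries (NEBNext Ultra II Directional kit). The submitters' processing notes name STAR, FastQC, edgeR and the build GRCh38. The counting program, annotation, strand setting and treatment of multiply matching reads are not given in the sources used here. Genes without a symbol (5, 0.000814% of counts) were left out. The table's starts count from 0, and 1 was added.

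Counts were fitted in R 4.3.3 with edgeR 4.0.16 (filterByExpr with minimum count 10 and minimum total 15, TMM, robust quasi-likelihood test, group as the term, prior count 2). P-values were adjusted by Benjamini-Hochberg over all genes tested and called under 0.05. SEs are the unshrunken coefficient over the root of F, and 95% intervals use its degrees of freedom. CPM values use TMM library sizes. DESeq2 1.42.0 was an alternative. Differences per replicate number are of log2 CPM. Length and GC came from 1 GENCODE 29 transcript a gene (principal, then longest), with splines of 4 degrees of freedom, for 99.2% of tested genes. Within a group, chi-square values per degree of freedom were at least 5.42, so no pair agreed within counting noise as repeat deposits of a library would; the check does not tell cultures from technical repeats. The scripts were tested on simulated data.

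The numbers were checked for pairing: deviations of same-numbered libraries from their group means correlated at 0.462, 0.396 and 0.652 across 12944 genes, each above 0.1. Deviations from a mean of 3 libraries are tied to each other, and replicate 3 lay apart in both groups. Replicates 1 and 2 can thus correlate without being pairs, so the check cannot show that the numbers mark pairs. The members and lists were chosen with earlier results of these data known. All members are accounted for. Given in full are the 3 transcription factors, the 2 members of each role with the smallest p, and any called in an alternative. Of each other list the gene with the smallest p is named, with SQSTM1, TCIRG1 and GABARAP. GLA, HEXA, ATP6V1B2, ULK1, ULK2, LUM, CDH6 and the others named with fewer values were chosen after their values were seen. One call in these lists is not reported here.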

Additional observations from a re-analysis of the deposited data

How the results depend on the processing

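Members were called under 3 of the 21 alternatives run: 1 in replicates 1 and 2 alone (111 genes in all), 5 with the replicate block and without replicate 3 (912 genes), and 2 with the block once length and GC trends were removed (202 genes). The replicate block alone called 22 genes and changed no member's call. Over all genes, no filter called 12, DESeq2 27, the term for replicate 3 35, the block with DESeq2 58, and the block without replicate 1 or 2 called 74 and 77. Fits that each left out 1 library called 0 to 15 genes, with 15 only without copper replicate 3, and 0 members. The members' median stayed above 0 throughout, from 0.0405 to 0.102, and 26 to 34 members were above 0. The length and GC settings and the block with DESeq2 were chosen after seeing the data. Of single members' results, 762 kept direction and call, 8 gained a call and 91 changed sign, in 21 members whose fold changes in the test as reported were at most 0.18 in size. The members tested had at least 109 counts in every library, and ATP6V0C at most 11.

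Sign changes, with the cause not tested, were as follows. In replicates 1 and 2 alone they were ATP6V0A2 (0.0405), ATP6V1C1 (0.0747), ATP6AP1 (-0.0819), CTSZ (-0.0448), MAP1LC3B (-0.0176), GABARAPL1 (-0.0432), ATG5 (0.00747) and ULK1 (-0.128), and in the same order with the block and without replicate 3 they were 0.0331, 0.0745, -0.0816, -0.0445, -0.0209, -0.0431, 0.0086 and -0.129. With the length and GC trend removed, without and with the block, they were ATP6V0A2 (0.00279, 0.00176), ATP6V1C1 (0.0415, 0.0417), ATP6V1E1 (-0.0156, -0.0144), ATP6AP1 (-0.00843, -0.00939), MCOLN1 (-0.00328, -0.00493), CTSZ (-0.0768, -0.0795), MAP1LC3B (-0.0244, -0.0252), GABARAPL1 (-0.0492, -0.0452), BECN1 (-0.0247, -0.0253) and OPTN (0.0151, 0.0113). With the block and without replicate 1 they were MITF (-0.0109), BECN1 (-0.0264) and OPTN (0.0243), and without replicate 2 ATP6V1A (-0.0105), TFE3 (0.0163), MAP1LC3B (-0.0393) and OPTN (0.0299). Upper-quartile and total-count scaling gave ATP6V1C1 (0.0021, 0.0101), TFE3 (0.0162, 0.0192) and OPTN (0.0219, 0.0255). No filter gave CTSZ (-0.013), MAP1LC3B (-0.0167) and GABARAPL1 (-0.00858). ULK1 was at -0.00221 with the block, -0.00145 with the term for replicate 3 and -0.00556 with the block in DESeq2, where MAP1LC3B was at -0.000416.

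Over the 6 fits that each left out 1 library, values ran from -0.208 to 0.0812 for ATP6V0A2, -0.00483 to 0.204 for ATP6V0B, -0.0363 to 0.297 for ATP6V1A, -0.111 to 0.133 for ATP6V1C1, -0.00554 to 0.131 for ATP6V1D, -0.125 to 0.116 for ATP6AP1, -0.049 to 0.108 for LAMP1, -0.0586 to 0.157 for MCOLN1, -0.0203 to 0.277 for CTSB, -0.0795 to 0.0521 for CTSZ, -0.0734 to 0.255 for GUSB, -0.0859 to 0.0411 for TFE3, -0.00925 to 0.464 for MITF, -0.0657 to 0.0349 for MAP1LC3B, -0.072 to 0.0629 for GABARAPL1, -0.0942 to 0.0627 for ATG5, -0.00135 to 0.0986 for ATG7, -0.244 to 0.157 for ULK1, -0.0131 to 0.0759 for BECN1 and -0.0365 to 0.032 for OPTN. Copper replicate 3 decided 11 of these signs.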

Other observations

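GABARAP, the founding member of its ATG8 subfamily, had a row as sparse as that of ATP6V0C, with 3, 7 and 7 counts in copper and 3, 2 and 4 in control, and was not tested. Its relatives GABARAPL1 and GABARAPL2 had 1435 to 2232 and 1383 to 2044 counts in each library. Per kilobase of transcript the control level of GABARAP was 0.0874 CPM, against 43.7 for GABARAPL1 and 81.5 for GABARAPL2. The search by name that found 4 pseudogenes of ATP6V0C in RefSeq found 0 of GABARAP. With no filter edgeR gave GABARAP a log2 fold change of 0.79 (SE 0.63, adjusted p 0.975). Its copper library was above control at all 3 replicate numbers in log2 CPM. In replicate 1 both held 3 counts, out of totals of 16301772 in copper and 25079913 in control.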
